A study of Drosophila melanogaster with 33 samples.

Results

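The genes described here are those named for the protein subunits of the cytosolic and the mitochondrial ribosome of Drosophila melanogaster. They were followed in the midgut of late larvae and prepupae, in the hours around puparium formation. Members were chosen by gene symbol alone: symbols starting with RpL or RpS were taken as cytosolic, and those starting with mRpL or mRpS as mitochondrial. The arrays carried 97 such genes among 9905 named genes, of which 37 were cytosolic and 60 mitochondrial. RefSeq names 92 cytosolic and 73 mitochondrial genes by the same rule, so the arrays covered the mitochondrial group more completely than the cytosolic one. The remaining genes were not analysed here, and RpS6 was among them. Probes were joined to genes through the annotation of the array platform, and the 2 ribosomal protein probes that match more than 1 gene were left out.

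All animals were of the Canton S strain and carried no treatment, so the groups differ by developmental stage only. The first stages lay 18 h and 4 h ahead of puparium formation, which is called 0 h here, and the later ones 2, 3, 4, 5, 6, 8, 10 and 12 h past it. Each stage has 3 arrays, a, b and c, which the labels describe as independent samples. On each array amplified midgut RNA of the stage, labelled with Cy5, was hybridised with a Cy3-labelled reference mixed from 10 of the stages, all but 10 h. Whole midguts were used, so a lower ratio can mean fewer cells of a type or less RNA per cell, and these cannot be told apart. A ratio to a reference also shows neither absolute level nor absence, so the labelled tissue could not be checked by the level of its markers. Of 23 digestive enzyme genes of the enterocyte list, 21 were measured. In the limma moderated F test 20 of the 21 differed over the stages, against 55.0% of all rows. That shows variation between stages and cannot check the tissue.

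Values are taken as log2 ratios of stage to reference, and a difference of 1 between stages is then a doubling. Base and direction are inferred from the sum over the stages in the mixture, averaged for 7257 probes. In units of the deposited values, this sum was most even when read as base 2 and stage over reference. In these units, the SD of that sum was 0.117, against 0.509 with the sign turned. With stage over reference it was 0.181 for base 1.5, 0.142 for base e and 0.308 for base 10. On a common log2 scale base 1.5 was more even, at 0.106 against 0.117 for base 2, so the check does not settle the base. Stage over reference was more even than the reverse with every base. The fold values given here depend on that base, and the tests do not. Arrays of different stages correlated at −0.53 to 0.85 over all probes, and 100 of 495 such pairs lay below −0.3; the labels state 1 dye orientation for all arrays, so the direction was kept. The arrays held 7006 to 13966 values, and their number limits the precision. The mean was 8949 values for letter a, 11998 for b and 12486 for c. The 6 h array a held the fewest and stood above its stage partners for both groups of ribosomal protein genes: its cytosolic median was 0.54 against −0.03 and −0.04, and its mitochondrial median was 0.80 against 0.31 and 0.37. The 0 h array a also stood apart, with a cytosolic median of 0.42 against −0.19 and −0.16. In 10 of 11 stages the same array was highest for both groups.

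Cytosolic ribosomes translate the messages of nuclear genes, and their subunits are assembled from ribosomal RNA and protein mainly in the nucleolus. Mitochondrial ribosomes translate the few messages of the mitochondrial genome, which encode core subunits of the respiratory chain. All proteins of both ribosomes are encoded in the nucleus and made in the cytosol. During these hours the larval midgut epithelium is condensed and removed while an adult epithelium forms around it from imaginal cells. In flies, pulses of the steroid hormone ecdysone before puparium formation and in the late prepupa drive these changes.

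The 2 groups followed different courses. The median over mitochondrial members went from −0.21 ± 0.06 at 18 h before puparium formation (mean ± SD of array medians, n = 3 here and in the next sentences) to −0.12 ± 0.20 at 0 h, 0.25 ± 0.11 at 4 h and 0.49 ± 0.27 at 6 h. It was then 0.13 ± 0.18 at 8 h, −0.23 ± 0.30 at 10 h and −0.50 ± 0.15 at 12 h. The cytosolic median was −0.10 ± 0.06 at the first stage, 0.02 ± 0.34 at 0 h, −0.05 ± 0.13 at 4 h, 0.16 ± 0.33 at 6 h, −0.07 ± 0.16 at 8 h, −0.13 ± 0.20 at 10 h and 0.16 ± 0.31 at 12 h. Its stage means therefore moved by no more than the spread between arrays at 0, 6 or 12 h. The median over all genes and probes stayed within −0.03 and 0.11 on every array.

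Taking both groups from the same array removes what an array adds equally to both. It does not remove differences in which members had a value. These were 21 to 37 cytosolic and 48 to 60 mitochondrial genes per array, and the part of this in the differences was not tested. The cytosolic minus the mitochondrial median was 0.11 ± 0.11 at 18 h before puparium formation, 0.23 ± 0.04 at 4 h before it and 0.14 ± 0.14 at 0 h, with the cytosolic median above on all 3 arrays of each stage. It was −0.08 ± 0.03 at 3 h, −0.30 ± 0.03 at 4 h, −0.26 ± 0.09 at 5 h, −0.33 ± 0.08 at 6 h and −0.20 ± 0.09 at 8 h, with the mitochondrial median above on all 3 arrays of each. The 2 h and 10 h stages were mixed, with the cytosolic median above on 2 of 3 arrays at each. At 12 h the difference was 0.67 ± 0.32, cytosolic above on 3 of 3 arrays. The sign of the difference thus changed between 0 and 3 h and again between 8 and 12 h. The first change was small beside the spread, with 0.14 ± 0.14 at 0 h and −0.04 ± 0.15 at 2 h. Each value is a ratio to the mixed reference, so the sign does not show which group had more RNA. These medians describe the 2 lists and carry no test.

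**Figure D1:**
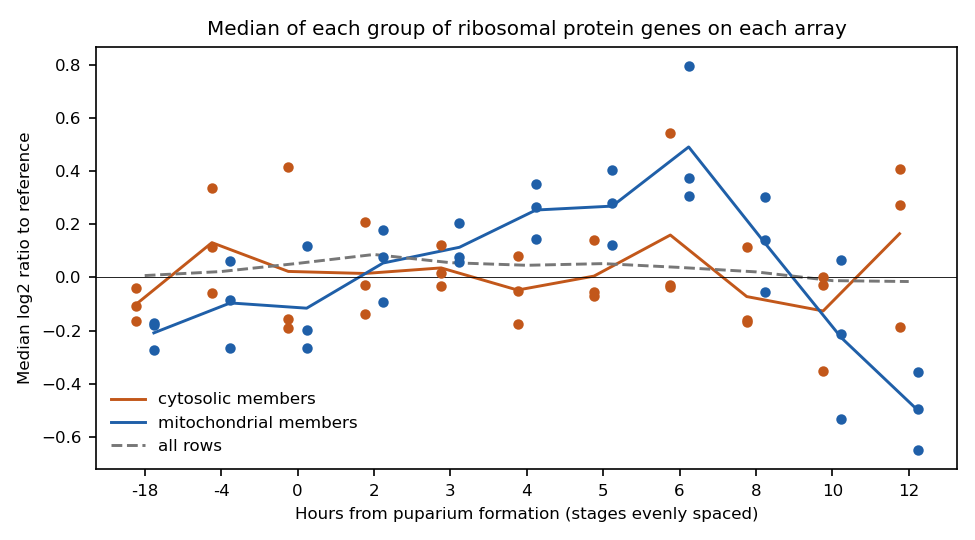
Median log2 ratio to the reference of cytosolic (orange) and mitochondrial (blue) ribosomal protein genes on each array, against hours from puparium formation, with stages evenly spaced. Points are arrays, solid lines join stage means (n = 3) and the grey dashed line is the stage mean of the median over all rows. The mitochondrial means peak at 0.49 at 6 h and reach −0.50 at 12 h, while the cytosolic means stay between −0.13 and 0.16. The mitochondrial median of the 6 h array a, at 0.80, lay above those of its partners at 0.31 and 0.37.

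Stage differences of single genes were tested with limma on all 33 arrays, with p-values adjusted by the Benjamini-Hochberg method over all rows tested, a row being a named gene or a probe without a single gene. A gene counts as changed at an adjusted p under 0.05. Over all 11 stages, 37 of 53 testable mitochondrial members differed, against 1 of 28 cytosolic members and 55.0% of all 6925 rows. The range between highest and lowest stage mean had a median of 1.10 in the mitochondrial group, 0.53 in the cytosolic group and 0.96 over all rows. Testable here means at least 2 values in every stage, which leaves out 7 mitochondrial and 9 cytosolic members, among them RpL32, a gene often used as a reference in fly expression work.

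From 0 to 6 h, 26 of 57 mitochondrial members rose and none fell, against 24.2% of all 7628 rows called, 13.1% higher and 11.2% lower. The median change was 0.61, a ratio of 1.52, and the changes ran from 0.01 to 1.43. Of the members 36 had all their 6 h arrays above all their 0 h arrays, against 22.7% of all rows. By the subunit in the symbol, 17 of 39 large and 9 of 18 small subunit genes rose. Of the 31 cytosolic members tested, 0 changed in the same limma fit, with 0 at an unadjusted p under 0.05 as well, and their median change was 0.09, with changes of −0.35 to 0.60. The median over all rows was 0.01.

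The largest rise was that of mRpS18C, a variant of ribosomal protein S18 in the mitochondrial small subunit. It measured −1.10 and −0.46 on the 2 arrays with a value at 0 h and 0.78 and 0.52 on those at 6 h, so the stages did not overlap. The change was 1.43 ± 0.26 (SE, adjusted p = 0.000185), and with 1 of these 4 values left out the gene could not be tested. mRpS30, a protein found in mitochondrial but not bacterial ribosomes, measured −0.28, −0.44 and −0.34 at 0 h and 0.99, 0.70 and 0.56 at 6 h. Every 6 h array lay above every 0 h array, and the change was 1.10 ± 0.22 (SE, adjusted p = 0.000489). At 2 h its values were already −0.02, 0.51 and 0.42.

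mRpL12, whose bacterial relative forms the stalk that recruits translation factors, measured −0.03, −1.07 and −0.53 at 0 h and 0.83 and 0.26 at 6 h. Its change was 1.09 ± 0.26 (SE, adjusted p = 0.00309). The 0 h array a was the highest of its stage and the 6 h array a the highest of both. The smallest called rise was 0.54 ± 0.13 for mRpL11, and the next largest after the 3 named was 1.07 ± 0.27 for mRpL32.

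The size of this rise leaned on 1 array. Without the 6 h array a, 10 of the 47 members still testable passed and the median change was 0.41. The calls of mRpL30, mRpL44, mRpL51 and mRpS18B were among those not kept, at changes of 0.70, 0.61, 0.43 and 0.66. Without the 0 h array b, 14 of 39 passed. The share of all rows called was not recorded for these reduced fits. All 57 members tested had a change above 0 with all arrays in.

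From 6 to 12 h, 45 of 59 mitochondrial members fell and none rose, against 21.1% of all 8596 rows called, 12.9% lower and 8.19% higher. This interval and the one from 0 to 6 h share the 6 h arrays. The median change was −1.03, a ratio of 2.05, with changes of −2.07 to 0.26, and 31 members were at least 2-fold lower. In 50 members every 12 h array lay below every 6 h array, against 23.3% of all rows. By subunit, 32 of 41 large and 13 of 18 small subunit genes fell. Of 31 cytosolic members 1 fell, RpLP0-like, and the median change was 0.04, beside −0.05 over all rows.

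mRpL12 had the largest fall. It measured 0.83 and 0.26 on the 6 h arrays with a value and −1.35 and −1.69 on those at 12 h, a change of −2.07 ± 0.29 (SE, adjusted p = 1.07e-05). Between them lay 0.30, 0.06 and 0.39 at 8 h and −0.64, −0.40 and −0.27 at 10 h. mRpL21, a large subunit protein, measured 1.13 and 0.78 at 6 h and −1.51, −0.84 and −0.91 at 12 h. Its change was −2.04 ± 0.27 (SE, adjusted p = 4.63e-06).

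mRpL44, related to ribonuclease III enzymes, measured 0.58, 0.40 and 0.53 at 6 h and −1.22, −1.82 and −0.99 at 12 h. The stages were far apart for their spread, and the change was −1.84 ± 0.21 (SE, adjusted p = 3.37e-07). mRpS18B, another S18 variant, measured 1.11, 0.31 and 0.76 at 6 h and −1.11, −0.86 and −1.36 at 12 h, a change of −1.84 ± 0.25 (SE, adjusted p = 3.64e-06). mRpS18C stood at −0.48 ± 0.06 (n = 3) at 10 h and −0.44 ± 0.02 (n = 2) at 12 h, while mRpS18B went from −0.72 ± 0.59 (n = 3) to −1.11 ± 0.25 (n = 3).

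Without the 6 h array a, 30 of 49 members fell from 6 to 12 h and the median change was −0.76. Leaving out all 11 arrays of letter a, a choice made after the data were seen, gave a median of −0.76 too, with 24 of 49 members called. Only genes with a value on every array can be compared with no change of membership. Among these 21 mitochondrial members, 14 rose from 0 to 6 h and 20 fell from 6 to 12 h. No share over all rows was recorded for these reduced fits, so their counts have no background beside them.

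**Figure D2:**
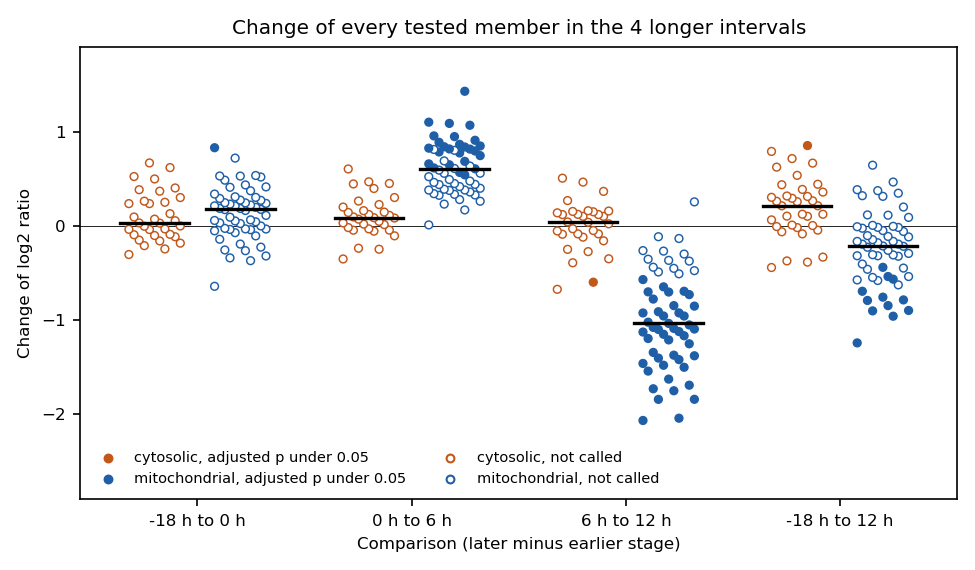
Change of the log2 ratio, later minus earlier stage, of every tested cytosolic (orange) and mitochondrial (blue) member in 4 intervals. Filled points passed the limma test at an adjusted p under 0.05, open points did not, and black bars are group medians. Mitochondrial medians are 0.61 from 0 to 6 h and −1.03 from 6 to 12 h, and cytosolic ones 0.09 and 0.04.

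A set of 14 mitochondrial members did not pass the 6 to 12 h test: mRpL24, mRpL35, mRpL38, mRpL40, mRpL45, mRpL50, mRpL52, mRpL54, mRpL55, mRpS6, mRpS9, mRpS17, mRpS31 and mRpS33. They were listed after their values were seen. Their changes ran from −0.51 for mRpS31 to 0.26 for mRpL38, the only positive one in the group. mRpS31, mRpL55 and mRpL54 also had the smallest ranges over the stages, at 0.51, 0.53 and 0.58, and did not pass the F test (adjusted p = 0.263, 0.075 and 0.174).

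mRpL55, another protein that bacterial ribosomes lack, measured −0.19 and 0.00 at 0 h, 0.21, 0.13 and 0.17 at 6 h, and −0.15, −0.41 and −0.25 at 12 h. Its 6 h arrays lay above those of both other stages, with changes of 0.26 ± 0.19 and −0.44 ± 0.17 (SE) that missed the threshold. mRpL54 measured 0.22, 0.06 and 0.44 at 6 h and −0.06, 0.12 and 0.33 at 12 h, so those stages overlapped. Its lowest stage was the first, at −0.34 ± 0.29 (n = 3).

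Over single steps between neighbouring stages the mitochondrial rise was spread out. No mitochondrial member changed in limma in the steps from 0 to 2, 2 to 3, 3 to 4, 4 to 5 or 5 to 6 h, where 3, 0, 1, 0 and 7 members had an unadjusted p under 0.05. In the same steps 5.97% of all rows changed from 0 to 2 h and 0% in the other 4. The median step was 0.17, 0.05, 0.19, 0.02 and 0.21 in that order. The fall was spread out too: the medians were −0.34 from 6 to 8 h, −0.38 from 8 to 10 h and −0.26 from 10 to 12 h. The 5 to 6 h and 6 to 8 h medians include the 6 h array a. Its mitochondrial median was 0.80, against 0.31 and 0.37 on arrays b and c, and step medians without it are not given here. From 6 to 8 h 0 members were called, although 18 had an unadjusted p under 0.05, and 2.88% of all rows changed. From 8 to 10 h 3 of 59 fell, against 1.35% of all rows called and 0.620% lower. From 10 to 12 h 4 of 60 fell, against 2.27% called and 1.33% lower. No cytosolic member was called by limma in any of the 8 steps after 0 h, with 3, 2 and 3 at an unadjusted p under 0.05 in the last 3 steps and 0 in the 5 before.

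The 3 that fell from 8 to 10 h were mRpL3, a core protein of the large subunit, mRpL51 and mRpS10. mRpS10 measured 0.30, −0.25 and 0.21 at 8 h and −0.80, −0.66 and −0.54 at 10 h, with no overlap (change −0.76 ± 0.19, SE, adjusted p = 0.0332). mRpL3 changed by −0.64 ± 0.16 and mRpL51 by −0.74 ± 0.19. The 4 that fell from 10 to 12 h were mRpL12 (−1.09 ± 0.26), mRpL44 (−0.92 ± 0.21), mRpL4 (−0.87 ± 0.22) and mRpL10 (−0.82 ± 0.21), the last of which binds mRpL12 in the stalk base in bacteria and mammals. mRpL10 measured −0.69, −0.32 and 0.24 at 10 h and −0.99, −1.13 and −1.11 at 12 h. These step calls lay near the threshold and each was lost without 1 of the arrays compared: mRpL3, mRpL51 and mRpS10 without the 10 h array a (changes −0.52, −0.50 and −0.69), and mRpL10, mRpL4 and mRpL44 without the 10 h array c (−0.57, −0.59 and −0.77). The call of mRpL12 was lost without the 10 h array b (−1.07) or c.

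Before puparium formation little moved. From 18 h before it to 0 h, 1 of 56 mitochondrial members rose and 0 of 33 cytosolic members changed, against 17.1% of all 9611 rows called and 9.88% higher. At an unadjusted p under 0.05 there were 5 and 2. The 1 gene was mRpL16, which in the ribosome lies next to the site where transfer RNA is accommodated. It measured −0.90, −1.18 and −0.37 at the first stage and 0.34, −0.26 and −0.04 at 0 h, without overlap (change 0.83 ± 0.22, SE, adjusted p = 0.0077). The call was lost without the first-stage array b (0.65) and without the 0 h array a (0.67). No member of either group was called in the steps from 18 to 4 h before puparium formation (6.03% of all 11438 rows) or from 4 h before it to 0 h (3.15% of all 9570 rows). The unadjusted counts were 1 mitochondrial and 4 cytosolic in the first step and 0 and 0 in the second.

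Between the first stage and the last, called the whole interval, 12 of 58 mitochondrial members were lower at the end, and none was higher. The background was 17.3% of all 11916 rows called, 8.18% lower and 9.13% higher. The median change was −0.21, against −0.03 over all rows, and changes ran from −1.24 to 0.65. mRpL10 measured 0.39 and −0.06 at the first stage and, as given above, −0.99, −1.13 and −1.11 at the last, a change of −1.24 ± 0.23 (SE, adjusted p = 0.000222). mRpS18B followed with −0.96 ± 0.24 (SE, adjusted p = 0.00533) and mRpS35 with −0.90 ± 0.22 (SE, adjusted p = 0.00415). mRpS35 measured −0.27, −0.03 and 0.06 and then −1.44, −0.83 and −0.68, and its call was lost without the 12 h array a (−0.67), and only 6 members passed without that array.

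**Figure D3:**
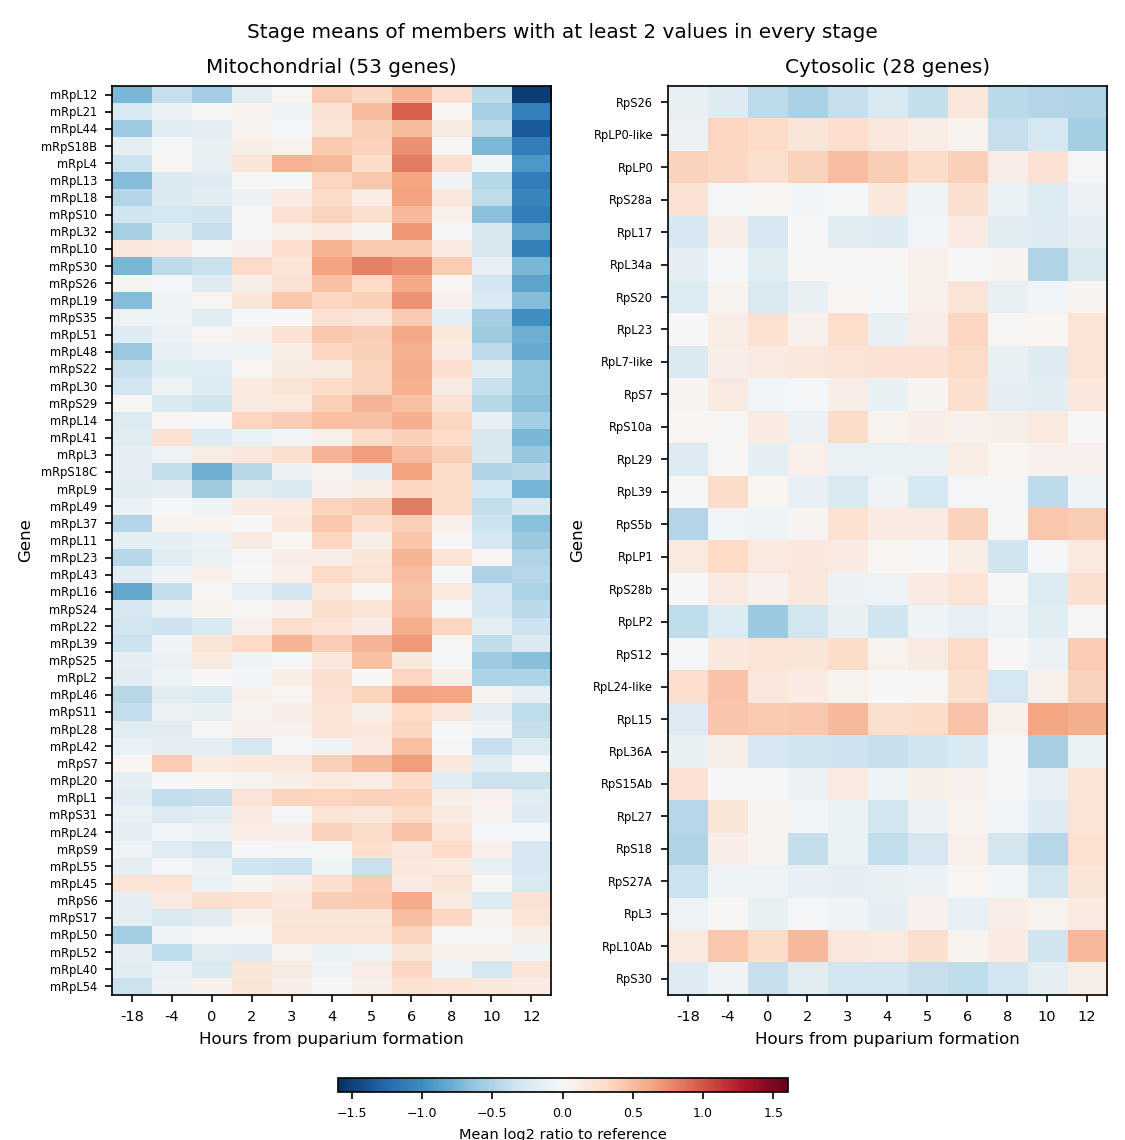
Mean log2 ratio to the reference at each stage (columns, hours from puparium formation) of the members with at least 2 values in every stage, 53 mitochondrial on the left and 28 cytosolic on the right. Genes are ordered by their 6 to 12 h difference, and red is above and blue below the reference. Of the mitochondrial genes 45 have their highest stage mean at 6 h and 34 their lowest at 12 h. The 6 h means include array a, whose group medians lay above those of its partners.

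The mitochondrial members resembled each other over the stages. Among the 53 with a full course, 45 had their highest stage mean at 6 h, 5 at 5 h, 2 at 4 h and 1 at 8 h, and 34 had their lowest at 12 h and 8 at 10 h. Of all 6925 rows, 969 were highest at 6 h, and 17.7% were lowest at 12 h and 11.5% at 10 h. The 6 h means include the high array a. The mitochondrial medians of the 6 h arrays b and c were 0.31 and 0.37. Those of single arrays ran from 0.14 to 0.35 at 4 h and from 0.12 to 0.40 at 5 h. The highest stages were not counted again without array a, so a 6 h peak is not separated from a level held from 4 to 6 h. The Pearson correlation of a member's 11 stage means with the median of the other mitochondrial members had a median of 0.91 and was over 0.8 in 39 of 53, against 6.09% of all rows. The median correlation between pairs of members was 0.77. All points share the same arrays and the same reference, so these correlations describe the courses and have no test. mRpL30 (r = 0.99) and mRpL18 (r = 0.97) were closest to the group, and mRpL54 (0.30) and mRpL55 (0.31) least like it. mRpL18 measured 0.84, 0.42 and 0.68 at 6 h and −1.07, −1.40 and −0.66 at 12 h.

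**Figure D4:**
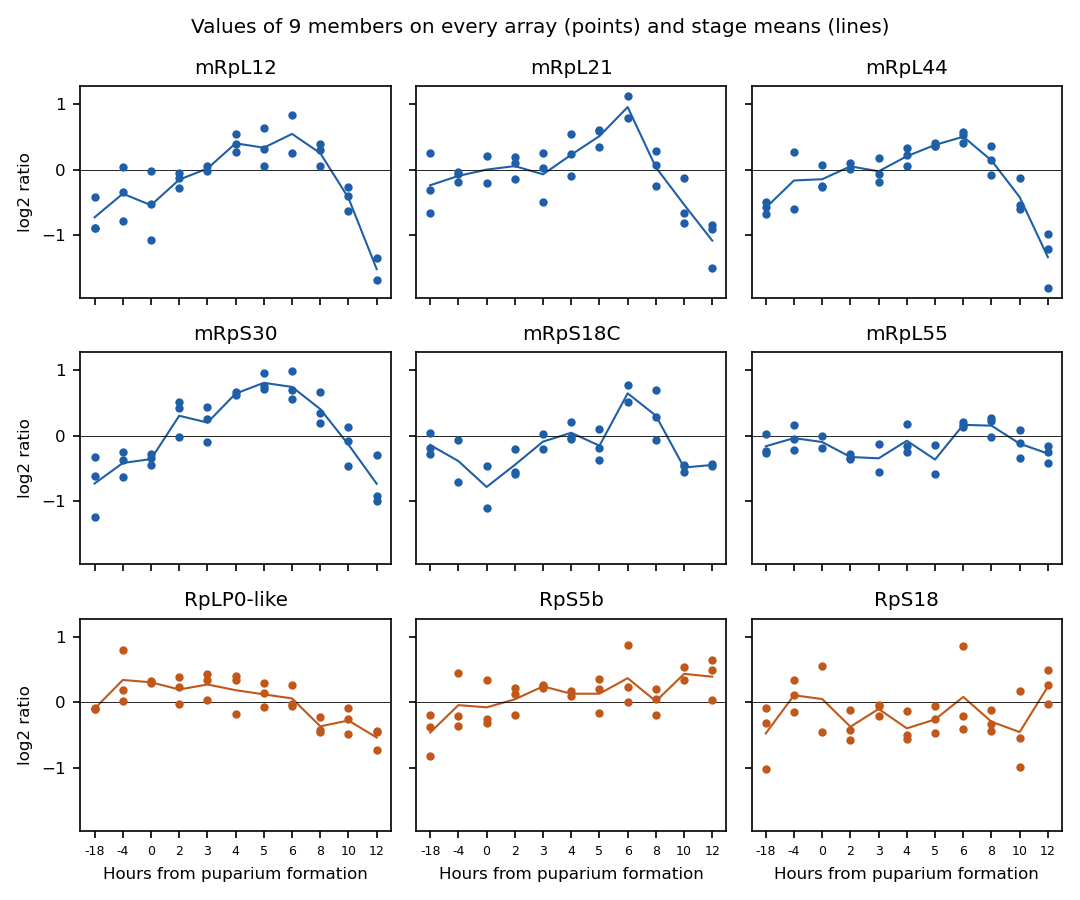
Log2 ratio to the reference of 9 members on every array (points) and stage means (lines) against hours from puparium formation. Mitochondrial members are blue and cytosolic ones orange. mRpL12, mRpL21 and mRpL44 peak at 6 h and are lowest at 12 h, mRpL55 stays within 0.53 over its stage means, and RpLP0-like is lowest at 12 h with a mean of −0.54.

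Cytosolic members were less alike over the stages. Of the 28 with a full course, 9 were highest at 12 h, 8 at 6 h and 5 at 4 h before puparium formation, and 9 were lowest at 10 h and 7 at the first stage. The correlation with the group median had a median of 0.40 and passed 0.8 in 4 members, against 0.318% of all rows, and the median between pairs was 0.23. Over all rows the median correlation with the cytosolic median was 0.015, and that with the mitochondrial median 0.17. RpS12 (0.88) and RpS18 (0.86), both small subunit proteins, were closest to the group median. RpS18 measured −0.09, −1.03 and −0.31 at the first stage, 0.56 and −0.46 on the 2 arrays with a value at 0 h, 0.85, −0.21 and −0.41 at 6 h, and 0.26, −0.03 and 0.49 at 12 h. Its arrays differed as much within 0 h and 6 h as its stage means did between stages. RpS10a (−0.28) and RpLP0 (−0.22) were least like the group. RpL3, RpL29 and RpS15Ab had the smallest ranges of stage means, at 0.28, 0.32 and 0.36, and RpL3, which lies at the peptidyl transferase centre, had no value on any array of letter a. RpS5b, RpLP0-like and RpL15 had the largest, at 0.90, 0.88 and 0.83.

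The 1 cytosolic gene that differed over the stages was RpLP0-like (adjusted p = 0.00104, moderated F test). Despite its symbol, its relatives in yeast and human are assembly factors that occupy the place of the stalk protein P0 in the immature large subunit. It measured 0.32, 0.29 and 0.31 at 0 h, 0.26, −0.03 and −0.06 at 6 h, and −0.45, −0.74 and −0.43 at 12 h. The 0 h arrays lay close together and above all arrays of the 8, 10 and 12 h stages. Its 6 to 12 h change was −0.60 ± 0.19 (SE, adjusted p = 0.0211), a call lost without the 6 h array a (−0.50), without the 12 h array b (−0.50), after quantile normalization (−0.51) and without the arrays of letter a (−0.54). RpLP0, the stalk protein itself, had stage means of 0.26 ± 0.14 at 0 h, 0.38 ± 0.25 at 6 h and −0.01 ± 0.60 at 12 h (n = 3 each), with 12 h values of 0.17, −0.69 and 0.48. Its partners on the stalk did not pass either: RpLP1 had a mean of 0.12 ± 0.51 at 6 h and 0.16 ± 0.55 at 12 h (n = 3 each), and RpLP2, with no value on the arrays of letter a, −0.13 ± 0.31 and −0.02 ± 0.70 (n = 2 each).

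Over the whole interval 1 of 35 cytosolic members was higher at the end and none lower, against 9.13% of all rows higher and 8.18% lower. The 1 gene was RpS5b, in the fly a copy of the small subunit protein S5 used mainly in the germline. It measured −0.20, −0.82 and −0.38 at the first stage and 0.64, 0.04 and 0.49 at 12 h, without overlap (change 0.85 ± 0.24, SE, adjusted p = 0.0116). The call was lost without the first-stage array b (0.68) and without the 12 h array a (0.73), and RpS5b did not pass over all stages (adjusted p = 0.0999). The median change of the group was 0.21, with 26 of 35 members above 0 and 8 at an unadjusted p under 0.05. The matching shares of all rows are not given here, so these counts only describe the list. RpL15, whose first-stage arrays were −0.32 and −0.09 and last-stage arrays 0.53, 0.36 and 0.87, changed by 0.79 ± 0.29 (SE) with an adjusted p of 0.060.

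Of the 37 cytosolic members, 15 have a related gene with the same root symbol, and a probe may also bind the partner's RNA, which was not tested. The copies with a letter or number suffix (RpL10Aa, RpL10Ab, RpL34a, RpL37-2, RpS5b, RpS10a, RpS15Ab, RpS19b, RpS28a and RpS28b) and the genes named -like (RpL7-like, RpL22-like, RpL24-like and RpLP0-like) belong here, with RpLP0. RpL7-like and RpL24-like, like RpLP0-like, resemble assembly factors in yeast. RpL7-like was highest at 6 h, at 0.30 ± 0.43, and RpL24-like at 4 h before puparium formation, at 0.45 ± 0.19 (n = 3 each). RpL24-like was lowest at 8 h, at −0.28 ± 0.04 (n = 3), with arrays of −0.33, −0.26 and −0.24 against 0.31, 0.43 and 0.38 at 12 h. These 8 h and 12 h arrays did not overlap, but that pair of stages was not a planned comparison and was not tested.

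RpL10Aa, with values on 20 arrays, stood at 0.81 ± 0.07 (n = 2) at 12 h, and RpL10Ab, with values on 31 arrays, at 0.52 ± 0.31 (n = 3). RpS28a and RpS28b were at −0.10 ± 0.21 and 0.26 ± 0.45 at 12 h (n = 3 each), within the spread of the latter. The remaining copies kept stage means between −0.48 and 0.36, some of them from 1 array: RpL34a was lowest, at 10 h, RpL22-like, RpL37-2, RpS15Ab and RpS19b did not leave −0.35 and 0.36, and RpS10a stayed between −0.09 and 0.30. Leaving out all 15 left medians of 0.08 from 0 to 6 h and 0.10 from 6 to 12 h, with 0 members called. RpL40 and RpS27A, made as fusions to ubiquitin, had 12 h means of 0.30 ± 0.16 and 0.20 ± 0.50 (n = 3 each) and 6 h means of −0.07 ± 0.33 and 0.03 ± 0.41 (n = 3 each), and neither gene passed the limma test between these stages (adjusted p = 0.248 and 0.714).

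For 4 cytosolic genes more than 1 probe was averaged. The 3 RpL3 probes had 10 h means of 0.30, −0.18 and 0.05, so probes of 1 gene could differ by as much as its stage means. The 2 RpS10a probes had 6 h means of −0.19, from array b only, and 0.20, from arrays a and c. They share no array at 6 h, so these means do not compare the probes. RpL28 had 6 h means of −0.52 and −0.20, and RpLP2 0 h means of −0.62 and −0.57.

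Other genes that serve mitochondrial translation were compared with the mitochondrial ribosomal proteins. Of 28 tested genes for mitochondrial translation factors, aminoacyl-tRNA synthetases and genome maintenance, 6 rose and none fell from 0 to 6 h, against 13.1% of all rows higher and 11.2% lower, with a median of 0.43. From 6 to 12 h, 13 of 33 fell and 1 rose, against 12.9% lower and 8.19% higher, with a median of −0.53. From the first stage to 0 h limma called 0 of 27 (1 at an unadjusted p under 0.05), against 17.1% of all rows. The elongation factor mEFTu1, which brings aminoacyl-tRNA to the mitochondrial ribosome, changed by 0.74 ± 0.22 and then −1.79 ± 0.22 (SE, adjusted p = 0.0127 and 8.05e-07), the first call being lost without the 6 h array a (0.56). bsf, an RNA-binding protein of mitochondrial messages, fell by 2.02 (adjusted p = 4.32e-07, log2 scale). AsnRS-m, the mitochondrial asparaginyl-tRNA synthetase, rose by 1.02 ± 0.26 and fell by 0.94 (SE 0.26), and the initiation factor mIF2 rose by 0.99 ± 0.26. The 1 gene that rose from 6 to 12 h was Lrpprc2, a relative of human LRPPRC, by 0.65 ± 0.20, a call lost after quantile normalization (0.61). bonsai, which encodes the mitochondrial S15 protein under another kind of symbol and so is no member, fell by 0.99 (SE 0.29, adjusted p = 0.0201) from 6 to 12 h.

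Ribosomes of the cytosol need many assembly factors that are not part of the finished particle. Of 41 tested genes of ribosome assembly and ribosomal RNA synthesis 12 fell and none rose from 6 to 12 h, against 12.9% of all rows lower and 8.19% higher, with a median of −0.37. From 0 to 6 h 4 rose and 3 fell of 39, both shares being below the 13.1% and 11.2% of all rows. Over the whole interval 11 fell and 1 rose of 43, against 8.18% and 9.13%. Over all stages 27 of 36 differed, against the 55.0% of all rows given above. wcd, a nucleolar protein of small subunit assembly, changed by −1.30 ± 0.23 from 6 to 12 h (adjusted p = 0.00014), and eIF6, which keeps new large subunits from joining, by −1.29 ± 0.21 (adjusted p = 5.45e-05). Nop60B, the pseudouridine synthase of ribosomal RNA, fell by 0.88 (SE 0.20) from 0 to 6 h. Nop17l, which helps assemble small nucleolar ribonucleoproteins, rose by 1.32 ± 0.28 in that interval, and RIOK2, a kinase of small subunit maturation, rose by 0.66 ± 0.21. Tsr1, a small subunit assembly factor, rose by 1.01 ± 0.27 from the first stage to 0 h.

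Cytosolic translation factors, which load, move and release ribosomes on a message, are the last list of genes that act with ribosomes. From the first stage to 0 h 6 of 34 rose and none fell, against 9.88% of all rows higher. From 0 to 6 h 3 rose and 1 fell of 32, fewer by share than the 13.1% and 11.2% of all rows. From 6 to 12 h 4 of 33 fell and none rose, a share near the 12.9% of all rows lower. NAT1, a relative of the scaffold eIF4G, rose by 1.30 ± 0.26 up to 0 h and fell by 1.24 (SE 0.26) by 6 h. eRF1, the termination factor, rose by 1.16 ± 0.34 up to 0 h, and its call was lost without the first-stage array b (0.99). eEF1delta, part of the exchange factor of the elongation cycle, rose by 0.91 ± 0.19 up to 0 h and fell by 1.79 (SE 0.19, adjusted p = 1.32e-07) from 6 to 12 h. eIF2Bgamma, a subunit of the exchange factor of eIF2, fell by 1.06 (SE 0.23) in the same hours. eIF3a, a scaffold of initiation, rose by 0.84 ± 0.19 from 0 to 6 h. The cap-binding protein eIF4E1 ended 0.96 ± 0.20 above its first stage.

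Of the known regulators of ribosome synthesis, 1 was called in each longer interval, while 17.1%, 24.2%, 21.1% and 17.3% of all rows were called in the intervals in the order given here. Dref, a factor that binds promoters of many growth genes, rose by 0.77 ± 0.20 from the first stage to 0 h, 1 of 15 tested, and the call was lost without the first-stage array a (0.62). Trf2, a factor that in flies serves ribosomal protein promoters, changed by −0.69 ± 0.25 from 0 to 6 h, 1 of 14, a call lost under most alternatives, among them without the 6 h array a (−0.37). Taf1, a subunit of the general factor TFIID, changed by −0.65 ± 0.19 from 6 to 12 h, 1 of 13, a call lost without the 12 h array b (−0.37). S6k, the kinase of ribosomal protein S6, ended 0.94 ± 0.24 above its first stage, 1 of 14, a call lost without the arrays of letter a (0.69). The lists of this and the 3 preceding paragraphs are compared by count only.

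Among named genes outside the list taken by symbol, those most like the mitochondrial median in their 11 stage means were CRIF, CG13220, mEFTu1, glob1 and Ufsp2. Their r was 0.966, 0.965, 0.962, 0.961 and 0.961. Ribosomal proteins under other symbols, such as bonsai above, are not members, and these genes were not checked for that. For the cytosolic median the closest were CG6729, Ing3, Josd, CG14229 and MTA1-like, at 0.847, 0.841, 0.836, 0.826 and 0.822. These r values were picked as the highest of 5446 genes and are descriptions. CRIF had a mean of 0.57 at 6 h and −0.76 at 12 h, and glob1, a globin, 0.51 and −1.14.

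Markers of other cells were called in the same intervals, beside 13.1% of all rows higher and 11.2% lower from 0 to 6 h and 8.19% higher and 12.9% lower from 6 to 12 h. Of 12 haemocyte genes, 9 were measured well enough for some test, and the median of those on each array ran from −1.87 to −0.35 at 0 h, 0.32 to 1.08 at 6 h, 1.05 to 1.36 at 8 h and −0.55 to −0.16 at 12 h. From 0 to 6 h 2 of 5 haemocyte genes rose (Col4a1 by 3.45 and Sr-CI by 3.56) and none fell. From 6 to 12 h 3 of 8 fell (Col4a1, NimC1 and Pxn, by 1.87, 1.16 and 1.44) and none rose. Enterocyte digestive enzymes changed the opposite way: 14 of 21 fell and 1 rose from 0 to 6 h, with a median of −2.48, and 5 rose and none fell from 6 to 12 h, with a median of 1.07. With so few genes tested, single calls are near those shares. Of 7 visceral muscle genes 1 fell and then 2 rose in these intervals, of 6 midgut regulators and progenitor genes 2 and then 1 fell, and of 3 fat body genes 0 changed in either (1 and 0 at an unadjusted p under 0.05). From 6 to 12 h 2 of 3 Malpighian tubule genes and the 1 salivary gland gene tested rose. The part of these cells in the course of the ribosomal protein genes was not tested.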

How the data were processed

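Per the labels, total RNA of midguts was amplified by in vitro transcription and hybridised on 2-colour arrays. The deposited values are 1 ratio per probe and array, taken here as log2. For log base, direction, centring and normalization the status is: not given in the sources used here. The direction was taken as the one that best fitted the composition of the reference, an inference. That check did not settle the log base, which was taken as 2. No further scaling was applied. Of 20000 table entries 14064 held a value, and of these 10828 had 1 gene in the platform annotation, 227 several and 3009 none. Symbols were checked against RefSeq, and no member's symbol changed.

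Probes of a gene were averaged. limma 3.58.1 in R 4.3.3 fitted stage means over all 33 arrays. A row was tested where each of the stages compared had 2 or more values, so missing values were dropped and none imputed. Benjamini-Hochberg adjustment used a threshold of 0.05, and p-values measure the spread between samples the labels call independent. The fit was tested on simulated data. Tables were made in pandas 2.3.3 under Python 3.11.15, with NumPy 2.4.6, and figures in Matplotlib 3.10.9.

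Members were set by gene symbol alone, and the other lists were written with earlier results of these data known. Genes were named by rule: per group and longer interval the 3 largest called rises and falls (all where 5 or fewer), those with the 3 largest and smallest ranges, the 2 most and least like their group, called step members, duplicates, genes of set roles, the 2 largest called changes each way per list, and the 5 outside genes most like each group. Other names were chosen after seeing values. Alternatives were centring, quantile normalization, no filter, complete rows, single probes, a replicate block, no duplicates, current symbols and each array left out. Leaving out letter a, and all alternatives for steps and single genes, were added after seeing the data. Sequences were not analysed here.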

Additional observations from a re-analysis of the deposited data

How the results depend on the processing

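No call reversed under any alternative run: of the single-gene results recomputed, 6071 kept their side of the threshold and 518 lost it. Counts that moved by more than 1.5 times, and medians that moved by more than the spread between arrays, follow; all alternatives for single steps and the one without letter a were added after the data were seen. Among genes with a value on all arrays, mitochondrial calls were 0 (18 h before to 0 h), 14 (0 to 6 h), 20 (6 to 12 h), 1 (6 to 8 h), 0 (10 to 12 h) and 17 (all stages), of 21 genes, and cytosolic calls 0 (whole interval). Without the arrays of letter a, mitochondrial calls were 0, 12, 24 and 5 in the 4 longer intervals, 17 over all stages, 1 from 0 to 2 h, 0 from 8 to 10 h and 1 from 10 to 12 h. The mitochondrial 6 to 12 h median was then −0.76, and cytosolic calls were 0 from 6 to 12 h and 2 over the whole interval. Centring gave 2 mitochondrial calls up to 0 h and 1 from 8 to 10 h. Quantile normalization gave 2 and 0 there, and 0 cytosolic calls from 6 to 12 h. Without duplicated genes cytosolic calls were 0 in the 6 to 12 h, whole-interval and all-stage tests. No share over all rows was recorded for the alternative fits, so counts from them have no background beside them.

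Leaving out 1 array in turn gave these ranges. Mitochondrial calls: 0 to 2 up to 0 h, 10 to 27 from 0 to 6 h, 6 to 13 over the whole interval, 0 to 1 from 0 to 2 h, 0 to 4 from 6 to 8 h, 0 to 4 from 8 to 10 h and 0 to 5 from 10 to 12 h. Mitochondrial medians: −0.016 to 0.23 up to 0 h, 0.41 to 0.76 from 0 to 6 h and −1.11 to −0.76 from 6 to 12 h. Cytosolic calls: 0 to 1 from 6 to 12 h, 0 to 4 over the whole interval, 0 to 1 from 10 to 12 h and 1 to 2 over all stages. The cytosolic 6 to 12 h median ran from −0.11 to 0.26, so its sign is not settled. Where an array left a stage with fewer than 2 values, the gene was not tested, which lowers counts by construction; the cause of the other shifts was not tested.

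The labels do not say what the replicate letters share, and the letters were not taken as pairs because 86 of 165 same-letter pairs, not all, correlated over 0.1 in their deviations from stage means (−0.44 to 0.71). The median was 0.11, and 29 of 33 arrays were nearest to their own letter, a hint from the data that letters share something. For different letters the median was −0.055. Deviations from a stage mean cancel within the stage, so that value is tied to the same-letter one and is no separate contrast. With the letter as a replicate block, mitochondrial calls were 3 up to 0 h, 1 from 0 to 2 h and 5 from 8 to 10 h, and cytosolic calls 1 up to 0 h, 3 over the whole interval and 2 over all stages. The block moved no other count by more than 1.5 times.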
